A study of Mus musculus with 4 samples.

Results

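The genes that take up retinol, make retinoic acid from it, bind it, break it down and respond to it were examined in the mouse foregut at the time the lung bud appears, in its dorsal and in its ventral part. The members were 10 of the 18194 genes that a probe set names alone, *Stra6*, *Rdh10*, *Dhrs3*, *Aldh1a1*, *Aldh1a2*, *Crabp1*, *Crabp2*, *Cyp26a1*, *Cyp26b1* and *Rarb*, found as the probe sets whose only gene symbol in the platform annotation was one of these names. They were measured by 11 of the 34958 probe sets with a single symbol, since *Rdh10* had 2 probe sets and each of the other 9 genes had 1. The samples were the tracheoesophageal anlage of BALB/c embryos at about E9.75, the undivided tube between pharynx and lung bud that later gives rise to esophagus, trachea and lungs. It was cut by hand under the microscope into a dorsal and a ventral part, and RNA of each part was hybridized to 2 Affymetrix arrays, called dorsal and ventral replicates 1 and 2 here and biological replicates in the labels. The labels name no mutant allele and no treatment for either part. Each part holds epithelium and mesenchyme together, so no value belongs to 1 tissue layer, and fewer cells of a type and less RNA per cell cannot be told apart. No source used here states if the replicates came from separate litters or pools, so the tests measure only the spread between these arrays.

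Retinoic acid is a small lipid signal made from vitamin A. Retinol enters cells through the receptor STRA6, is oxidized to retinal by RDH10, and retinal is oxidized to retinoic acid by the ALDH1A enzymes, while DHRS3 turns retinal back into retinol. In the cell retinoic acid is held by the binding proteins CRABP1 and CRABP2, activates nuclear receptors such as RARβ, and is cleared by the CYP26 enzymes. In the mouse foregut it is known to be needed for lung bud formation, and embryos without *Aldh1a2* do not form lungs.

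*Rarb* and *Cyp26a1* are known to be switched on by retinoic acid itself, and their promoters are shown because the letters that its receptor binds stand next to the transcript start. The receptor half-site was taken as AGGTCA or AGTTCA or GGGTCA or GGTTCA, and 2 copies in the same orientation, 2 or 5 bases apart, were searched on both strands from 250 bases before to 50 bases after each start. Promoters from RefSeq (GRCm38.p6) were given for 8 of the 10 members, in 14 windows. Copies 5 bases apart were found in 2 of these windows, those of *Rarb* and *Cyp26a1*, and in 0.0974% of all 32851 promoters (32 promoters). Copies 2 bases apart were found in none of the 14 windows and in 0.268% of all promoters. In the lines that follow, the 17 bases of the repeat are in capitals with 40 bases on each side. The *Rarb* stretch is chr14:16575473-16575569 on the minus strand, with the repeat at positions -53 to -37 from the transcript start. The *Cyp26a1* stretch is chr19:37697736-37697832 on the plus strand, and its repeat at positions -32 to -16 reads on the opposite strand as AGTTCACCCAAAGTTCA.
Rarb: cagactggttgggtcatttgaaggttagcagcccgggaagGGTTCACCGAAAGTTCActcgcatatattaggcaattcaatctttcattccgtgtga
Cyp26a1: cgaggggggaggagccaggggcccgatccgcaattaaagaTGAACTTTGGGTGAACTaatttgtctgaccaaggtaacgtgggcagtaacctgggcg

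Values are RMA values per probe set, read as log2, so a difference of 1 is a doubling of the signal. A probe set was tested when at least 2 of the 4 arrays had it above their own 40th percentile, and the 23336 such probe sets were tested together with limma, as dorsal minus ventral, with an adjusted p under 0.05 as the threshold. Dorsal replicates differed by a median of 0.08 and ventral replicates by 0.27, and the median difference between the parts over all tested probe sets was 0.08. It was 0.19 without ventral replicate 1 and -0.003 without ventral replicate 2. Ventral replicate 2 had the lowest upper quartile of the 4 arrays (7.75, against 8.02 on ventral replicate 1). Its lower quartile was the highest (4.04, against 3.89 on ventral replicate 1). Every member probe set was lower on ventral replicate 2 than on ventral replicate 1. How far the ventral spread of single genes comes from this difference between whole arrays was not tested. Precision is limited by the number of arrays (4), and with 2 per part the smallest two-sided p of an exact permutation test is 0.333. Values of different genes come from different probes, so only differences between the parts are compared.

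*Crabp1*, *Aldh1a1*, *Aldh1a2*, *Cyp26a1* and *Cyp26b1* were higher in the dorsal part, *Crabp1* by 19.5-fold and the other 4 by 1.93-fold to 2.63-fold. No member was higher in the ventral part by limma, and at an unadjusted p under 0.05 there was 1, *Crabp2*, against 6 with higher values dorsally, where 6.13% and 9.89% of all tested probe sets stood at that level. All 11 member probe sets lay above the 40th percentile on all 4 arrays and were tested. Of these, 5 were higher dorsally, 0 were higher ventrally and 6 did not pass, where 3.28% of all tested probe sets were higher dorsally and 2.56% ventrally. The median difference of the 11 probe sets was 0.67. For 6 of them both dorsal arrays lay above both ventral arrays, against 31.8% of all tested probe sets, and for 2 both ventral arrays lay above both dorsal ones, against 16.4%. For the other 3 the arrays of the parts overlapped. Without dorsal replicate 1 the number higher dorsally was 3, without dorsal replicate 2 it was 2, without ventral replicate 1 it was 7, and without ventral replicate 2 it was 4 with *Crabp2* higher ventrally. In these settings 1.29%, 1.33%, 29.4% and 3.12% of all tested probe sets were higher dorsally, so the count of 7 goes with a rise over all probe sets. With 1 array left out, the spread comes only from the part that keeps both. Without dorsal replicate 1 every member probe set had the same standard error, 0.32, and so it was without dorsal replicate 2. Passing without a dorsal array was thus set by the size of the difference alone, not by the spread of each gene.

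**Figure D1:**
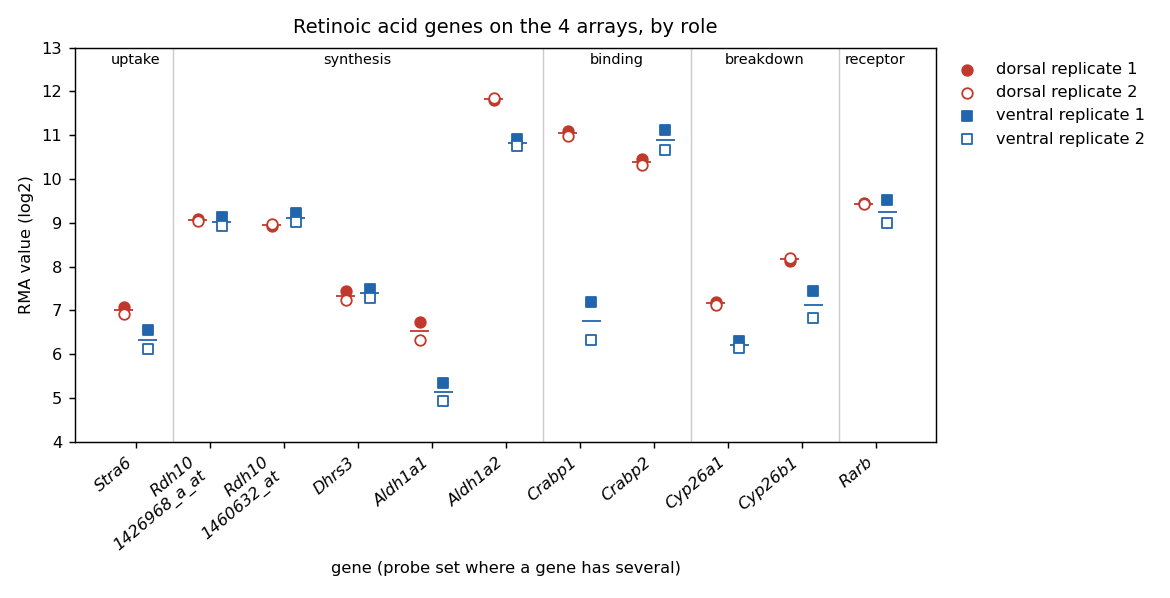
RMA values (log2, vertical axis) of the 11 member probe sets, ordered by role, with 1 point per array, red circles for dorsal and blue squares for ventral, filled for replicate 1 and open for replicate 2, and a bar at the mean of each part. The red points of *Crabp1* lie at 11.10 and 10.98 and its blue points at 7.20 and 6.31, while the points of *Rdh10* and *Dhrs3* lie close together; heights of different genes are not comparable.

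Uptake was represented by *Stra6*, the membrane receptor for the retinol carrier of blood. Its values were 7.07 and 6.93 dorsally and 6.54 and 6.12 ventrally. Both dorsal values were thus the higher ones. The log2 difference was 0.67 (standard error 0.19, 95% interval 0.25 to 1.08), which did not pass the test (adjusted p = 0.0711 from limma). It passed when 1 probe set per gene was tested (adjusted p = 0.0196), with a filter at the 60th percentile (0.0326), with the probe sets of each gene averaged (0.0390) and, at a difference of 0.88, without ventral replicate 1 (0.0180), and its adjusted p lay between 0.0054 and 0.844 over the alternatives.

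Among the genes of retinal metabolism, *Rdh10* and *Dhrs3* differed little between the parts. The enzyme encoded by *Rdh10* makes the retinal from which retinoic acid is formed. Its probe set whose identifier ends in _a_at had 9.08 and 9.05 dorsally and 9.13 and 8.92 ventrally, a difference of 0.04 (95% interval -0.33 to 0.41, adjusted p = 0.930 from limma). The other had 8.92 and 8.98 dorsally and 9.22 and 9.02 ventrally, a difference of -0.17 (95% interval -0.53 to 0.20, adjusted p = 0.671). The probe sets thus had opposite signs, neither passed the test, and the intervals hold changes of up to 1.45-fold. *Dhrs3*, whose product works against RDH10, had 7.45 and 7.23 dorsally and 7.49 and 7.29 ventrally. Its arrays overlapped, with a difference of -0.05 (95% interval -0.43 to 0.33, adjusted p = 0.914 from limma). With 1 array left out, the difference of *Dhrs3* lay between -0.16 and 0.06, and that of the first *Rdh10* probe set between -0.06 and 0.15, without passing.

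The retinal dehydrogenase genes *Aldh1a1* and *Aldh1a2*, which encode enzymes of the last step of synthesis, were both higher dorsally. *Aldh1a2* encodes the main such enzyme of the early embryo, which is found in mesoderm. The dorsal arrays had 11.81 and 11.85 and the ventral arrays 10.92 and 10.75. The dorsal part was thus higher on every array, by 1.99-fold (log2 difference 0.996, standard error 0.16, 95% interval 0.63 to 1.36, adjusted p = 0.00391 from limma). Same-numbered arrays differed by 0.89 (number 1) and 1.10 (number 2). Without dorsal replicate 1 the difference was 1.02 and did not pass, nor did it without dorsal replicate 2 (0.97).

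*Aldh1a1* had 6.73 and 6.33 dorsally and 5.34 and 4.93 ventrally. The parts did not overlap, and the lowest of the 4 values stood at the 41.9th percentile of its array, close to the filter. The difference was 1.39, or 2.63-fold (standard error 0.20, 95% interval 0.94 to 1.84, adjusted p = 0.00179 from limma). It was 1.39 and 1.40 within the arrays of each number. Without ventral replicate 2 it was 1.19 and did not pass (adjusted p = 0.0522, the highest over its alternatives, with 4.57e-12 the lowest). *Aldh1a7*, a close copy of *Aldh1a1* in the mouse genome, had 6.82 and 6.57 dorsally and 6.08 and 5.40 ventrally, a difference of 0.95 (adjusted p = 0.0322). How far the probes of each also bind the RNA of the other was not tested.

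Of the genes of the binding proteins, *Crabp1* was higher dorsally and *Crabp2* did not pass, with higher values ventrally. *Crabp1*, which encodes a retinoic acid binding protein known from neural crest and hindbrain, had 11.10 and 10.98 dorsally and 7.20 and 6.31 ventrally. Each dorsal value exceeded each ventral one by more than the gap between replicates, which was wider ventrally. The difference was 4.29 (standard error 0.25, 95% interval 3.73 to 4.85, adjusted p = 2.71e-06 from limma), or 19.5-fold with an interval of 13.2 to 28.8, and it ranked at place 19 by size of difference among the 23336 tested probe sets. Same-numbered arrays differed by 3.90 and 4.67, and the difference lay between 3.84 and 4.73 with 1 array left out, passing each time. *Crabp2* encodes the protein that carries retinoic acid to its nuclear receptor. It had 10.45 and 10.33 dorsally and 11.13 and 10.66 ventrally. Here the ventral values were the higher ones, with a difference of -0.51 (standard error 0.19, 95% interval -0.93 to -0.08), which did not pass (adjusted p = 0.203 from limma). Without ventral replicate 2 it was -0.74 and passed (adjusted p = 0.0340), without ventral replicate 1 it was -0.28 (adjusted p = 0.0855), and the adjusted p ran up to 1 over its alternatives.

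Both member genes of retinoic acid breakdown were higher dorsally. *Cyp26a1*, whose promoter is printed above, had 7.20 and 7.13 dorsally and 6.29 and 6.14 ventrally. All dorsal values were above the ventral ones, by 1.93-fold (difference 0.95, standard error 0.16, 95% interval 0.59 to 1.31, adjusted p = 0.00516 from limma). Within the arrays of each number the differences were 0.91 and 0.99. It did not pass without dorsal replicate 1 (0.91, adjusted p = 0.131) or dorsal replicate 2 (0.98, adjusted p = 0.0756), and its lowest adjusted p was 1.05e-05. *Cyp26b1*, which encodes a second enzyme of the family, had 8.13 and 8.20 dorsally and 7.44 and 6.82 ventrally. The ventral replicates lay further apart than the dorsal ones, but below both of them. The difference was 1.04, or 2.05-fold (standard error 0.21, 95% interval 0.57 to 1.50, adjusted p = 0.0134 from limma). Same-numbered arrays differed by 0.70 and 1.38. Without dorsal replicate 2 it was 1.002 and did not pass (adjusted p = 0.0646, the highest over its alternatives, with 9.02e-07 the lowest). The member genes of the last step of synthesis and of breakdown thus were higher in the same part, with differences from 0.95 to 1.39. Outside the members, *Cyp2s1*, listed under breakdown, was higher ventrally (-0.84). Of the genes listed under synthesis, *Aldh1a7* was higher dorsally (0.95), *Aldh8a1* did not pass (-0.29) and *Aldh1a3* lay below the filter. Whether the product of *Aldh1a7* makes retinoic acid was not examined here.

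The receptor gene *Rarb*, the other member with the repeat in its promoter, had 9.45 and 9.42 dorsally and 9.52 and 8.99 ventrally. The ventral arrays lay on either side of the dorsal ones. The difference was 0.18 (standard error 0.20, 95% interval -0.25 to 0.62, adjusted p = 0.699 from limma), so dorsal increases above 1.54-fold lie outside the interval. Without ventral replicate 1 it was 0.45 and passed (adjusted p = 0.0279), where the median of all tested probe sets was 0.19, and without ventral replicate 2 it was -0.08. *Cyp26a1* and *Rarb*, which share the repeat, thus had differences of 0.95 and 0.18, and whether these differ from each other was not tested.

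**Figure D2:**
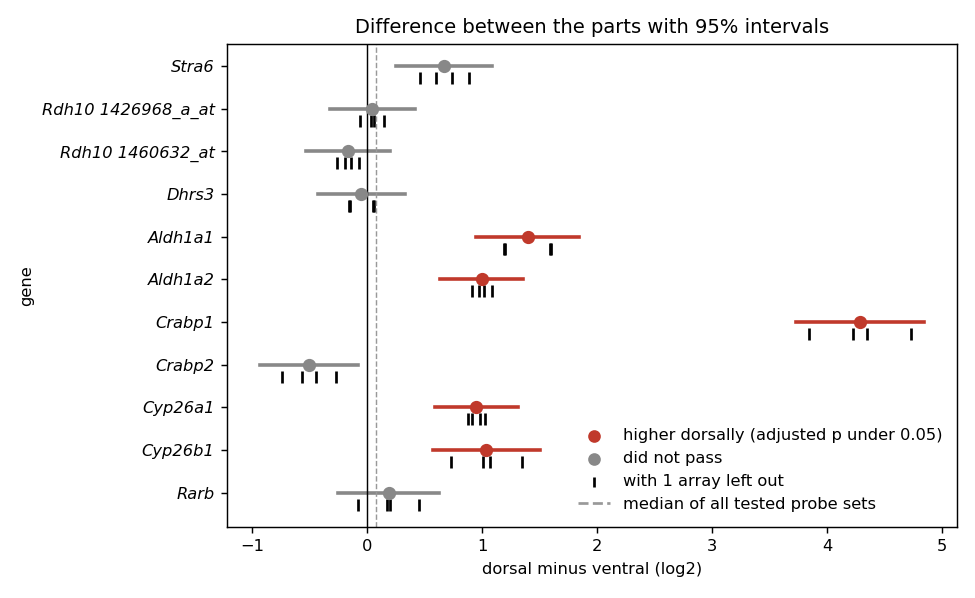
Dorsal minus ventral difference (log2, horizontal axis) of each member probe set, with a point at the difference from all 4 arrays, a line for its 95% interval from limma, black ticks for the differences with 1 array left out, and a dashed line at the median of all tested probe sets, 0.08. *Crabp1* stands apart at 4.29, a group of 4 genes lies between 0.95 and 1.39, and the intervals of *Rdh10*, *Dhrs3* and *Rarb* hold 0.

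The other genes of the retinoid pathway were taken from a list of 52, of which 46 had a probe set with a single symbol and 33 were tested by their probe set with the highest mean. Of these, 3 were higher dorsally, 3 ventrally and 27 did not pass, where 3.44% of all 13139 genes so represented were higher dorsally and 3.01% ventrally. The median difference of the list was 0.11, against 0.07 over all genes. Without dorsal replicate 1 the number that passed was 2, and without ventral replicate 1 it was 13, where 39.5% of all genes passed. *Adh1*, an alcohol dehydrogenase gene whose enzyme oxidizes retinol, had 7.51 and 7.55 dorsally and 5.80 and 6.13 ventrally, a difference of 1.57 (adjusted p = 0.000278 from limma), and *Lrp2*, which encodes the endocytic receptor megalin, had 5.77 and 5.64 against 4.92 and 4.43 (difference 1.04, adjusted p = 0.00857). The third gene higher dorsally was *Aldh1a7*. Higher in the ventral part were *Ttr*, the gene of the blood protein transthyretin that carries the retinol binding protein (8.41 and 8.42 against 10.61 and 10.37, difference -2.08, adjusted p = 2.82e-05), *Ces1d*, a carboxylesterase gene (-1.14, adjusted p = 0.00326), and *Cyp2s1*, a cytochrome P450 gene (-0.84, adjusted p = 0.0151). *Ttr* is also a marker of hepatic cells, and its other 3 probe sets had -2.23 to -1.47. *Lrp2* did not pass without dorsal replicate 1 (0.97) or with quantile normalization once more (1.06), *Ces1d* did not without dorsal replicate 1 (-1.03), and *Aldh1a7* and *Cyp2s1* were each lost under 5 alternatives. Over the alternatives the adjusted p ran up to 0.0861 for *Lrp2*, 0.0530 for *Ces1d*, 0.251 for *Aldh1a7*, 0.419 for *Cyp2s1*, 0.0152 for *Adh1* and 0.00406 for *Ttr*.

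None of the 11 tested genes for other receptors and cofactors passed by limma. The retinoic acid receptor genes *Rara* and *Rarg* had differences of 0.07 and 0.22, and the partner receptor genes *Rxra*, *Rxrb* and *Rxrg* had 0.29, 0.16 and 0.61, the last with an adjusted p of 0.0763. The receptor genes thus showed no difference that passed, while the 95% interval of *Rxrg* ran from 0.22 to 0.99 and that of *Rarg* from -0.14 to 0.59. *Aldh1a3*, the gene of the remaining retinal dehydrogenase of this family, lay below the filter, with 4.43 and 4.49 dorsally and 4.78 and 4.54 ventrally.

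Genes known to respond to retinoic acid were described from a list of 28, of which 25 had a probe set with a single symbol and 21 were tested. Of these, 8 were higher dorsally, *Isl1* was higher ventrally and 12 did not pass, with a median difference of 0.35. Of all 13139 genes, 3.44% were higher dorsally and 3.01% ventrally, with a median of 0.07. The Hox genes *Hoxb5* (3.03), *Hoxb1* (1.76), *Hoxb3* (1.59), *Hoxc5* (1.46) and *Hoxa5* (0.91) were among those higher dorsally, with adjusted p from 1.94e-06 to 0.00585 from limma. *Hoxb1* had 10.43 and 10.46 dorsally and 8.77 and 8.60 ventrally. *Tbx1*, a T-box gene that retinoic acid is known to repress, was higher dorsally too (1.45, adjusted p = 0.000313), as were the homeobox gene *Meis2* (1.04, adjusted p = 0.00371) and the nuclear receptor gene *Nr2f1* (0.90, adjusted p = 0.00759). The LIM homeobox gene *Isl1*, which marks cardiac progenitors and neurons among other cells, differed by -1.66 (adjusted p = 0.000126 from limma). Of the 12 that did not pass, *Cdkn1a* (-0.56), *Nr2f2* (-0.47) and *Tgm2* (-0.38) had both ventral arrays above both dorsal ones. The reverse held for *Hoxb4* (0.68), *Zfp703* (0.50), *Gbx2* (0.35) and *Meis1* (0.27). For the others the arrays overlapped, *Hoxa4* (0.30) and *Hoxa3* (0.17) among them. *Hoxa5* and *Nr2f1* did not pass without either dorsal array (0.93 and 0.89 for *Hoxa5*, 0.93 and 0.88 for *Nr2f1*), *Meis2* did not without dorsal replicate 2 (0.97), and *Meis2* (0.93) and *Nr2f1* (0.80) did not with quantile normalization once more, with adjusted p of up to 0.159, 0.174 and 0.0808 for *Hoxa5*, *Nr2f1* and *Meis2*. The 3 other *Meis2* probe sets had 0.71 to 2.23. Other tested probe sets had smaller differences for *Hoxb3* (0.73), *Hoxc5* (0.89 to 1.13) and *Hoxa5* (0.51), while *Hoxb5* and *Hoxb1* had no other probe set. Without ventral replicate 1 the number of genes of this list that passed was 16, where 39.5% of all genes passed.

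**Figure D3:**
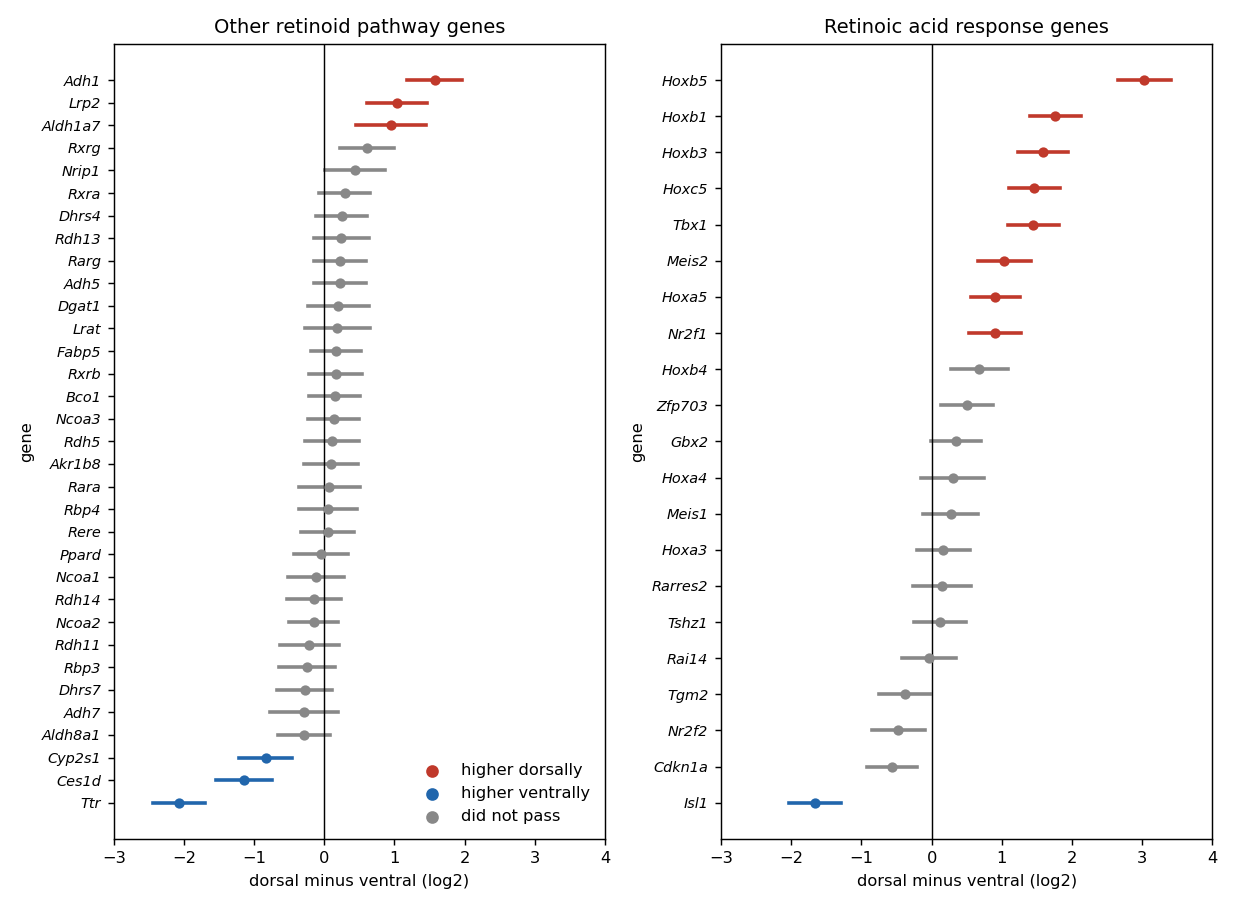
Dorsal minus ventral difference (log2, horizontal axis) with its 95% interval from limma for the 33 tested genes of the other retinoid pathway genes (left) and the 21 tested retinoic acid response genes (right), red where higher dorsally, blue where higher ventrally and grey where the test was not passed. On the left most genes lie near 0 with *Adh1* at 1.57 and *Ttr* at -2.08, and on the right *Hoxb5* lies at 3.03 and *Isl1* at -1.66.

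Markers of several cell types differed between the parts, some higher dorsally as the members that passed and others higher ventrally, and their part in the results was not tested. Of 4 neural crest markers with a single-symbol probe set, all 4 were higher dorsally, with *Ret* at 4.79 and *Sox10* at 2.05, and their summed linear values were 1687 to 1742 dorsally and 362 to 363 ventrally, beside *Crabp1* at 4.29. The other tested probe sets of *Ret* and *Sox10* had differences of 0.40 and 0.26. *Foxd3*, a defining crest gene, had 5.01 and 5.74 dorsally and 4.25 and 4.23 ventrally (difference 1.14), the latter below the 40th percentile. In the ventral part *Sox10* (6.55 and 6.81) and *Erbb3* (7.78 and 7.71) lay above that percentile. *Ret* (4.84 and 4.48) did so on ventral replicate 1 only. Of 5 mesothelial markers, *Bnc1* (3.60), *Wt1* (2.96) and *Upk3b* (2.56) were higher dorsally, *Tbx18* did not pass (-0.18) and *Msln* lay below the filter, with sums of 1535 to 1683 dorsally and 687 to 917 ventrally. Such sums weigh genes by the brightness of their probes, so they do not measure how much of a cell type a part holds. The ventral mesothelial sum comes mostly from *Tbx18* (9.55 and 9.13). Of 6 markers of paraxial mesoderm, where *Aldh1a2* is known to be expressed, *Meox1* (2.01) and *Meox2* (0.78) were higher dorsally, 3 did not pass and *Pax1* lay below the filter, with sums of 620 to 725 and 382 to 415. In the ventral part all 6 tested heart muscle markers of 7 were higher, such as *Tnnt2* (-5.34, other probe sets -5.53 to -0.76) and *Myh6* (-6.16), with sums of 14185 to 18249 against 2191 to 2228, as were 3 of 4 tested hepatic markers, among them *Afp* (-3.50, other probe sets -3.14 to -1.11) beside *Ttr*. Neural tube markers were not above the filter in 4 of 6 cases, with *Olig2* at 2.99 to 3.16 on all arrays, and the other 2 did not pass. Of the markers of foregut epithelium all 8 were tested and *Shh* was higher ventrally (-2.66, other probe set -1.14). The other 7 did not pass, with differences from -0.63 for *Foxa1* to -0.09 for *Krt18*, a median over the 8 of -0.48, and both ventral arrays above both dorsal ones for all but *Krt18*. Of those of splanchnic mesenchyme all 6 were tested, *Gata4* was higher ventrally (-3.05, other probe set -1.20), and the other 5 did not pass, with differences from -0.71 to 0.27. None of 5 endothelial markers passed, and of 4 blood markers *Alas2* (1.19) and *Hba-x* (1.04) were higher dorsally.

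**Figure D4:**
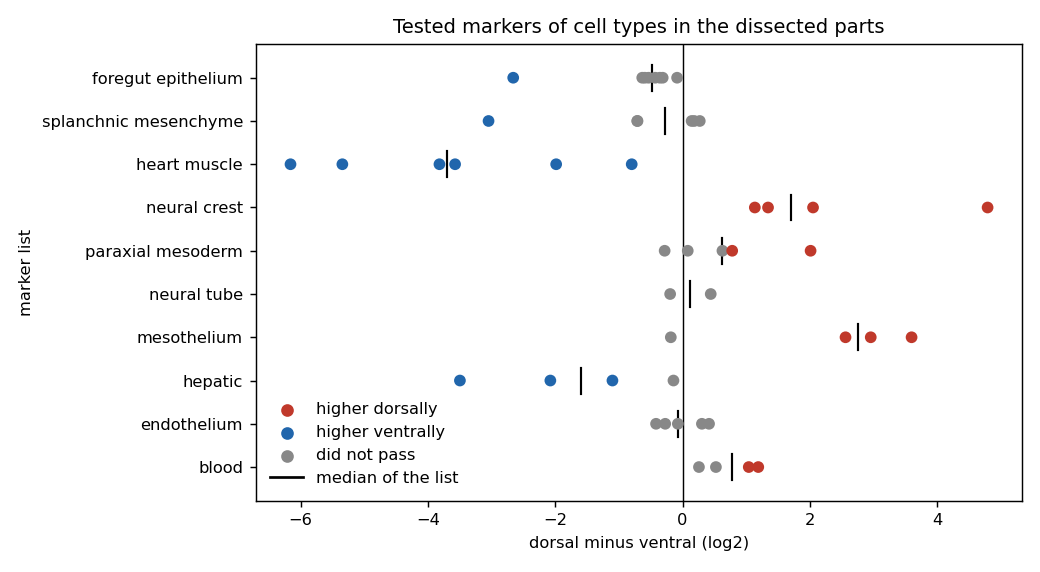
Dorsal minus ventral difference (log2, horizontal axis) of the tested markers of 10 cell types (vertical axis), with 1 point per gene, red where higher dorsally, blue where higher ventrally and grey where the test was not passed, and a black bar at the median of each list. Neural crest and mesothelial markers lie to the right, with medians of 1.70 and 2.76, and heart muscle markers to the left, with a median of -3.70.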

How the data were processed

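Total RNA (100 ng per array) was labelled in 2 cycles, and the authors summarised the arrays by RMA, named in the submitters' processing notes (software and version not given in the sources used here), into the deposited values, which are read as log2 because they run from 2.36 to 15.02. The values name no genome build, so no coordinates are given but those of the RefSeq promoters, and no detection call was used. Columns were mapped to samples by their labels. Of 45101 probe sets, 34958 had 1 gene symbol in GEO's platform annotation, 932 had several and 9211 were not named here. No symbol changed through the RefSeq table (GRCm38.p6), which held the identifiers of 34754. The deposited values were not normalized further.

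The 23336 probe sets that passed a filter at each array's 40th percentile, on 2 arrays or more, were fitted with lmFit and eBayes of limma 3.58.1 (R 4.3.3), with no replicate block and p-values adjusted after Benjamini and Hochberg. For gene lists, the probe set with the highest mean stood for a gene. The script was tested on simulated data. Members, lists and tests were chosen with earlier results of these data known. Named are all members, the list genes that passed, up to 14 and 10 by size, and some receptor, family, response and marker genes named after their values were seen. Alternatives were other filters, scalings, summaries per gene, probe set classes, eBayes options and thresholds, the replicate number as a block and each array left out. Protein sequences were not used here.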

Additional observations from a re-analysis of the deposited data

How the results depend on the processing

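Of 161 member values under the alternatives, 147 kept their side of the threshold, 7 were lost, 7 were gained and none of the calls turned its direction, though *Dhrs3*, *Rarb* and 1 *Rdh10* probe set, which did not pass with all 4 arrays, changed sign under some. The number of members higher dorsally was between 4 and 6 in all settings with 4 arrays, and the number higher ventrally was 0. In these settings 1.76% to 5.95% of all tested probe sets or genes were higher dorsally. Without probe sets that match several transcripts the number higher dorsally was 4 because the *Crabp1* probe set was left out. Counts with 1 array left out are given above with their shares. With 1 array left out, 650 to 8888 probe sets passed in all (1362 with 4 arrays), 2 to 13 other pathway genes (6) and 6 to 16 response genes (9). Over all probe sets 849 genes passed with the probe sets of each gene averaged and 805 probe sets at an adjusted p under 0.01, and 3 other pathway genes passed with quantile normalization once more. With the replicate block 2326 probe sets passed, and *Stra6* passed with 6 members higher dorsally, where 5.95% of all tested probe sets were higher dorsally. In that fit every member probe set had the same standard error, 0.19, so its p-values do not rest on the spread of each gene. The same held for members and passing list genes without dorsal replicate 1 and without dorsal replicate 2, with a standard error of 0.32 in each. Same-numbered arrays deviated together (correlation 0.21 over probe sets), but the labels do not say what a number marks and 2 pairs are too few to tell. No member lay below the 40th percentile on both arrays of a part, so no value was set at that percentile. The median difference of all tested probe sets changed sign with quantile normalization once more (-0.0063) and without ventral replicate 2 (-0.0033). With 2 arrays per part, *Stra6* at a difference of 0.67 and *Crabp2* at -0.51 did not pass.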
